A study of Homo sapiens with 2 samples.

Results

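MDM2 is the ubiquitin ligase that binds the tumour suppressor p53, blocks its activity and marks it for degradation. The gene is itself a transcriptional target of p53, so that both proteins form a feedback loop. It is transcribed from an upstream promoter, active without p53, and from an internal promoter in the first intron, which carries p53 binding sites. Many spliced forms of MDM2 have been described in tumour cells, several of which lose the part that binds p53 while they keep the catalytic RING domain at the end of the protein.

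MDM2 was followed here through all entries of the deposited tables that carry its symbol, chosen by gene name alone: 6 of 993 transcripts in the expression table, and 22 of 35827 events in the table of skipped exons. The cells were A549, an established human lung adenocarcinoma line, in 2 groups of 1 library each. The paclitaxel group received 7.22 nM paclitaxel, which stabilizes microtubules, for 72 h, and the DMSO group received the solvent for the same time. Both came from the same line cultured in F12K medium with serum, and no gene was altered in either. With 1 library per condition there was no spread between replicates and no test across replicates, and every difference below is one between 2 libraries.

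Expression was given in FPKM, the fragments assigned to a transcript scaled by its length and by the size of the library, which the authors estimated per transcript. The expression table held only transcripts picked by the authors' own comparison. None of its nonzero pairs of values differed by less than 1.52 on the log2 scale, and nothing is reported of transcripts that it does not list. The number of MDM2 transcripts that changed is therefore fixed by how the table was made. Direction and level are given for listed transcripts only. Sums, shares and relations between transcripts leave out any transcript that was not picked. Of all 993 listed transcripts, 46.1% were higher with paclitaxel. Read depth is unknown from FPKM estimates of this kind, so no counting interval can be given. None of 13 markers of lung epithelium and A549 was among the listed genes, so the label of the cells could not be checked. Of 18 red blood cell markers, 3 were listed, and the summed FPKM of these globins (HBA1, HBA2 and HBB) was 458 in the paclitaxel library, against 0.118 in the DMSO library, where HBB was listed at 0. Of 16 immune markers only S100A9 was listed (5.85 FPKM with paclitaxel and 0.123 FPKM with DMSO), and of 12 fibroblast and endothelial markers only ACTA2 (34.5 FPKM with paclitaxel and 6.23 FPKM with DMSO). The part of these signals in the MDM2 result was not tested.

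All 6 listed MDM2 transcripts were higher in cells treated with paclitaxel. Summed over them, MDM2 reached 417 FPKM with paclitaxel, against 44.3 FPKM with DMSO, a ratio of 9.42. By this sum MDM2 stood at rank 3 of 812 listed genes in the paclitaxel library, behind ALDH3A1 (814 FPKM) and SAT1 (503 FPKM), and at rank 124 in the DMSO library. A sum favours genes with many listed transcripts, and 678 of the 812 had only 1. Without ENST00000356290, described below, the MDM2 sum with paclitaxel was 335 FPKM, under that of CDKN1A (413 FPKM). The lowest MDM2 transcript with paclitaxel (16.1 FPKM) was above 5 of the 6 with DMSO.

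The most abundant MDM2 transcript, ENST00000539479, had 209 FPKM with paclitaxel and 23.5 FPKM with DMSO, a log2 ratio of 3.16. It begins at the internal promoter and encodes a protein of 491 codons, and it made up 50.2% of the listed MDM2 signal with paclitaxel and 53% with DMSO. In the order of all listed transcripts it was at rank 10 with paclitaxel and at rank 182 with DMSO.

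ENST00000393415 had 58.2 FPKM with paclitaxel and 11.3 FPKM with DMSO, the smallest ratio of the 6 at 5.15. It is annotated as an incomplete transcript of 842 bases that ends 9 bases into the last exon, the exon that encodes the RING domain. Its share of the MDM2 signal was 13.9% with paclitaxel and 25.5% with DMSO.

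ENST00000258148 had 28.3 FPKM with paclitaxel and 4.52 FPKM with DMSO, a ratio of 6.26. This transcript begins at the upstream promoter, lacks exons 6 and 7, and has 442 codons. ENST00000393416 had 22.8 FPKM with paclitaxel and 3.25 FPKM with DMSO, a ratio of 7.03. It is the listed transcript with an additional exon of 93 bases and has 522 codons.

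ENST00000258149, the MANE Select transcript, had 16.1 FPKM with paclitaxel and 1.30 FPKM with DMSO, a ratio of 12.4. It starts upstream, has 11 exons and 497 codons, and carries a last exon of 6271 bases, far longer than the last exon of 1534 bases in ENST00000539479. Exons are numbered below as in this transcript.

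ENST00000356290 differed most, with 82.5 FPKM in the paclitaxel library and 0.440 FPKM in the DMSO library, a ratio of 187 and a log2 ratio of 7.55. Its share of the MDM2 signal was 19.8% with paclitaxel and 0.995% with DMSO. It was 1 of 45 listed transcripts with no entry in GENCODE 44, so its exons are not described here. Without it, the summed ratio was 7.63 in place of 9.42, and the other 5 ratios lay between 5.15 and 12.4. A floor of 1 FPKM in each library leaves out this transcript and keeps the 5 others, and 31.5% of all listed transcripts above that floor were higher.

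**Figure D1:**
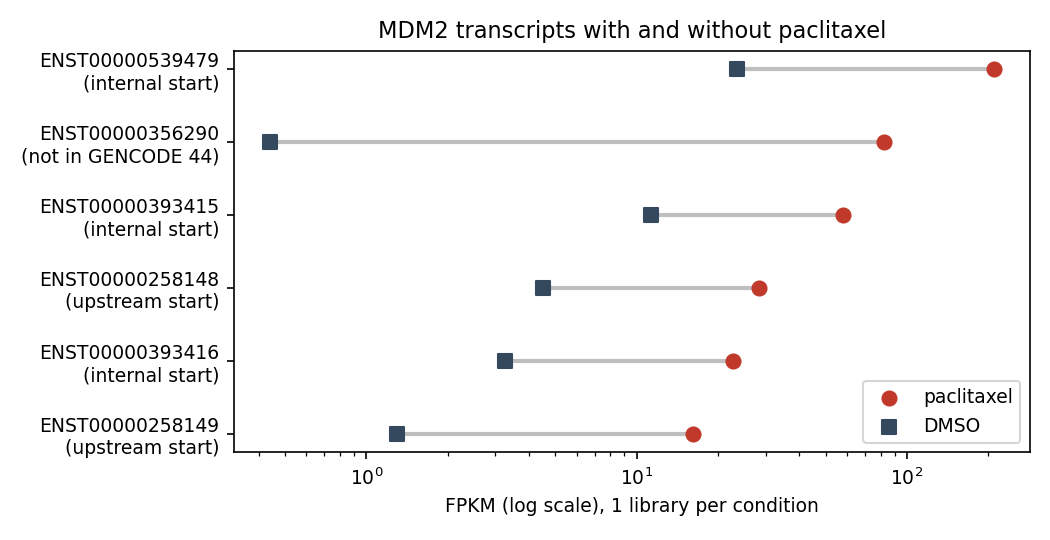
FPKM of each listed MDM2 transcript (rows) on a log axis, for paclitaxel (circles) and DMSO (squares), 1 library each, with a grey line joining both values. All 6 circles lie to the right of their squares, and the gap is widest for ENST00000356290 (82.5 and 0.440 FPKM).

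Among the 5 annotated MDM2 transcripts, those from both promoters were higher with paclitaxel, and by nearly the same summed factor. The 3 listed transcripts that start at the internal promoter summed to 290 FPKM with paclitaxel and 38.0 FPKM with DMSO, a ratio of 7.64. The 2 that start at the upstream promoter summed to 44.4 FPKM with paclitaxel and 5.82 FPKM with DMSO, a ratio of 7.62. Among these 5 annotated transcripts the internal starts thus held 86.7% of the signal with paclitaxel and 86.7% with DMSO. Within each promoter the ratios were spread: from 5.15 to 8.92 for internal starts, and 6.26 and 12.4 for upstream starts. Transcripts of 1 gene share most of their exons, so the division of fragments among them is an estimate, and the start of ENST00000356290 is not known here. With paclitaxel that transcript alone (82.5 FPKM) exceeded the upstream sum, so the near equality of both factors holds only with it left out. A further 31 MDM2 transcripts of GENCODE 44 were not listed. These sums and shares therefore cover transcripts picked for their change and do not measure the use of each promoter.

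**Figure D2:**
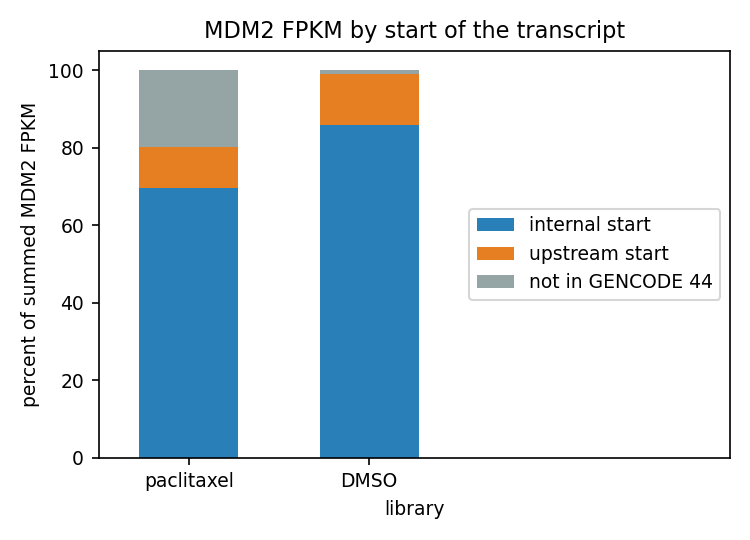
Percent of the summed MDM2 FPKM (y axis) in the paclitaxel and the DMSO library by the annotated start of the transcript. Internal starts made up 69.6% with paclitaxel and 85.8% with DMSO, upstream starts 10.6% and 13.2%, and the transcript that GENCODE 44 does not hold 19.8% and 0.995%.

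In the human genome build hg38 MDM2 lies on the plus strand of chromosome 12, from 68808177 to 68845544 in GENCODE 44. The first internal start is at 68809002, which is 825 bases after the upstream start. The sequence before the internal start is shown because it holds the p53 binding sites through which the gene is known to respond. RefSeq (GRCh38.p14) gives 4 start windows of 300 bases for MDM2. They were searched for the palindromic p53 consensus of 20 letters with no spacer and up to 3 mismatches, and the letters read alike on both strands. Both internal windows, which overlap, held the same 2 matches, with 2 and 3 mismatches, and the upstream windows held none. Of 35116 RefSeq windows of this length, 5.20% held at least 1 match and 0.313% held 2 or more. Capitals mark the matches in the stretch at chr12:68808867-68809001 on the plus strand, which ends at the base before the first internal start.
Internal promoter: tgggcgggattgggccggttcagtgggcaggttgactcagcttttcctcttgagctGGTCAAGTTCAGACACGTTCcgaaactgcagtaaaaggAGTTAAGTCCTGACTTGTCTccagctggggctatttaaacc
The matches lie at 68808923 to 68808942 and at 68808961 to 68808980. A match in these letters is a description of the sequence, and no binding was measured in this series.

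The table of skipped exons lists an event as an internal exon with an upstream and a downstream neighbour, and the same exon recurs with other neighbours. MDM2 had 22 events, where the median gene had 3, and 99.8% of the 9939 genes had fewer. By distinct exons it stood out less: MDM2 had 10, the median gene had 2, and 250 genes, MDM2 included, had at least 10. The 22 events concern exons 3 to 10, all coding, and 2 exons between exons 3 and 4 that the MANE Select transcript lacks. Lengths ran from 50 bases (exon 5) to 161 bases (exon 8), and 5 of the 10 are a multiple of 3, against 41.0% of the distinct exons in the whole table. Exon 8 had 5 events, exons 3, 4, 5 and 9 had 3 each, and the others 1 each. The read counts and inclusion levels in this table are given for a sample 1 and a sample 2 that no label ties to a condition. They were not used here, so how often any MDM2 exon was skipped with paclitaxel or DMSO is not reported.

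**Figure D3:**
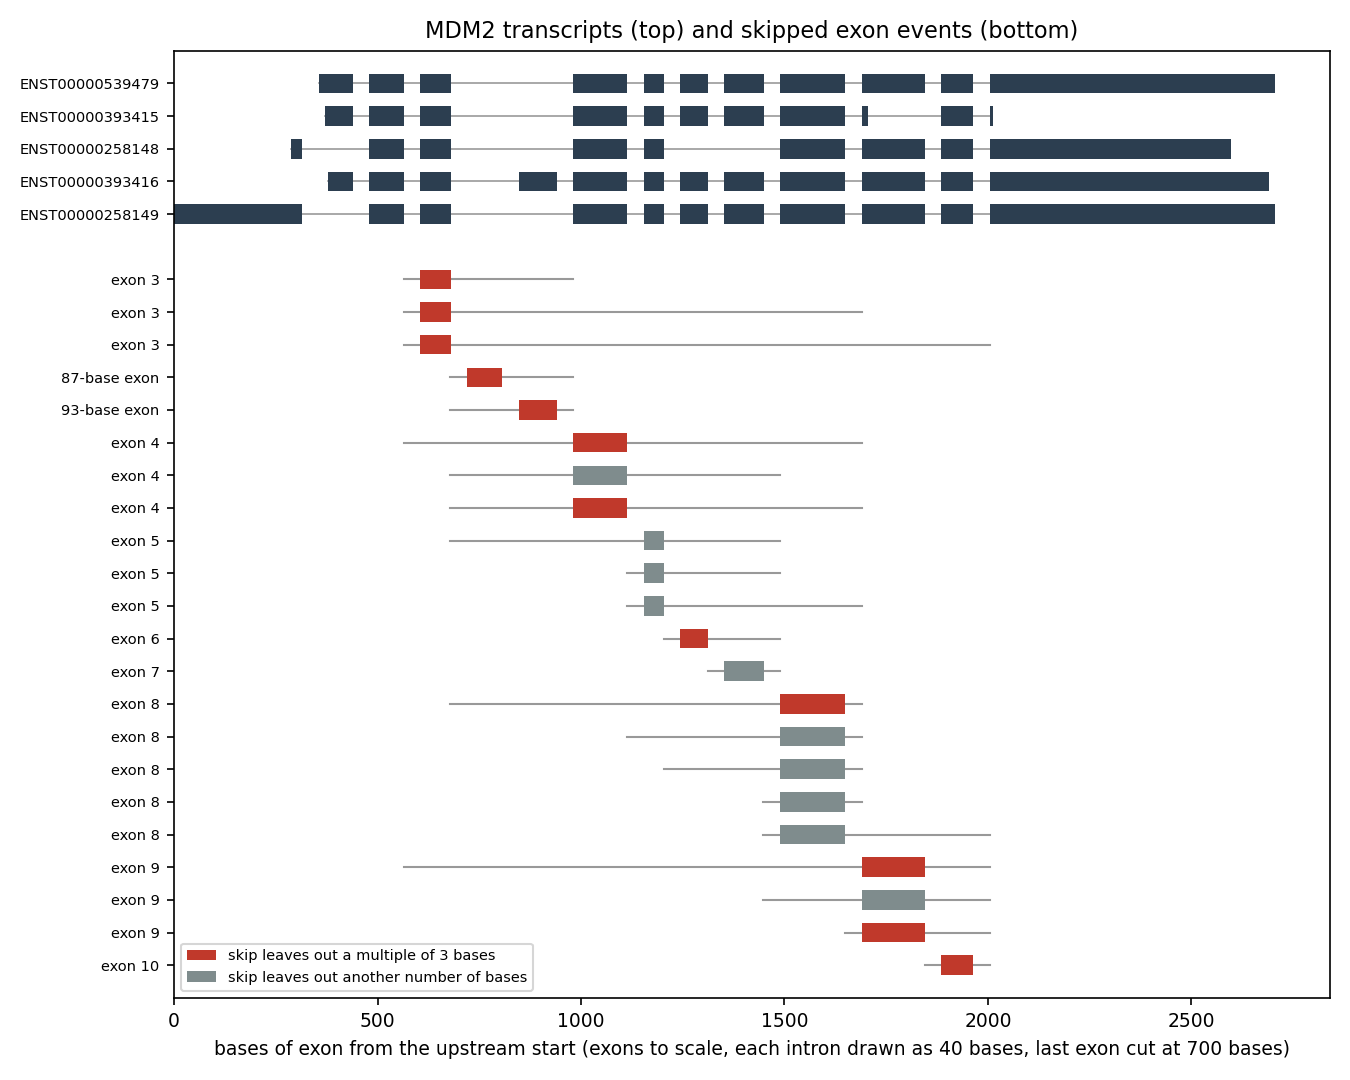
Listed MDM2 transcripts found in GENCODE 44 (top 5 rows) and the 22 skipped exon events (lower rows), drawn along the bases of exon with exons to scale, introns at a fixed 40 bases and the last exon cut at 700 bases. In each event the box is the exon, the line joins its neighbours, and red boxes (12 events) are those whose skip leaves out a multiple of 3 bases.

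The exons between exons 3 and 4 are the ones in which listed transcripts and events meet most directly. The junction from exon 3 to exon 4, which leaves both out, belongs to 4 listed transcripts: ENST00000539479, ENST00000393415, ENST00000258148 and ENST00000258149. The exon of 93 bases belongs to ENST00000393416 alone, the transcript with a ratio of 7.03, and keeps the reading frame without a stop codon. The exon of 87 bases belongs to no listed transcript. In GENCODE 44 it occurs in 1 transcript, a target of nonsense-mediated decay, and it brings an in-frame stop codon at its base 55. The exon of 87 bases is printed with 12 intron bases on either side because it holds that stop codon. Capitals mark the exon.
Exon of 87 bases, chr12:68814591-68814701, plus strand: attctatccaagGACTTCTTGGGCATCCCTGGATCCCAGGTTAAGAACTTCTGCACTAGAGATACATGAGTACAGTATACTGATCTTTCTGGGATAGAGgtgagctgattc
Of the 74 words of 20 bases in the 93-base exon, 46 occur more than once on chromosome 12, counted on both strands, the most frequent of them 1201 times. In the other 9 exons every such word occurs once on that chromosome. Fragments assigned to this exon, and with it the FPKM of ENST00000393416, may thus be less certain than those of the other exons.

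Exons 6 and 7 are absent from ENST00000258148, which joins exon 5 to exon 8. They measure 68 and 97 bases. Each alone would shift the frame, and together they remove 165 bases, a multiple of 3. The event of exon 6 has this very junction as its skip, so the event and this transcript share it. The transcript had 28.3 FPKM with paclitaxel and 4.52 FPKM with DMSO, and reads of the event were not examined. The event of exon 7 joins exon 6 to exon 8 and leaves out 97 bases, and in GENCODE 44 that junction occurs only in a transcript annotated for nonsense-mediated decay. The pair is shown with capitals for the exons.
Exon 6, chr12:68824351-68824442, plus strand: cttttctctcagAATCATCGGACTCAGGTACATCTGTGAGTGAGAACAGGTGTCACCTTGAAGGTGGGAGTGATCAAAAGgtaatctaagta
Exon 7, chr12:68824543-68824663, plus strand: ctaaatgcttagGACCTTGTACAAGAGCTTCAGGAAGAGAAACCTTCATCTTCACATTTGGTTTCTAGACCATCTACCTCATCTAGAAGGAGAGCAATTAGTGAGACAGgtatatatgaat

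Exon 9, which encodes part of the acidic region of the protein, is used in full by 4 listed transcripts, whereas ENST00000393415 keeps only its first 15 bases. The 141 bases that it drops are a multiple of 3, and they begin with the bases gt of a splice donor. Capitals mark the bases kept in ENST00000393415.
Exon 9, chr12:68835829-68835984, plus strand: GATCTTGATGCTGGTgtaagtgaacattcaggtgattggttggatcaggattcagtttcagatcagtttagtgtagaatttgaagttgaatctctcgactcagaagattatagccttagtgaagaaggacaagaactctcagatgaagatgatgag
This internal donor is not a skipped exon. The 3 events of exon 9 concern the whole exon, with exon 2, 7 or 8 upstream and exon 11 downstream.

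Most MDM2 events span more than their own exon. In 4 events exactly 1 exon of the MANE Select transcript lies between the neighbours (exons 3, 7, 8 and 10), in 16 events between 2 and 8 lie there, and the remaining 2 are those of the 87-base and the 93-base exon. The widest skip joins exon 2 to exon 11 and leaves out 819 bases, the structure known as MDM2-B, which lacks the p53-binding part and keeps the RING domain. The skip from exon 2 to exon 9 (585 bases) is that of MDM2-A, and the skip from exon 3 to exon 9 (510 bases) is that of MDM2-C. None of these structures was among the listed transcripts found in GENCODE 44. Of the 22 events, 12 leave out a multiple of 3 bases and 10 do not.

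By GENCODE 44, 18 of the 22 events have a skip junction that some annotated MDM2 transcript carries. In 13 of them it occurs in a protein-coding transcript, and in 5 it occurs in transcripts for nonsense-mediated decay and in no coding one. These 5 are the skips from exon 3 to exon 8 (listed for exon 4 and for exon 5), from exon 6 to exon 8, from exon 7 to exon 9 and from exon 8 to exon 11. The other 4 events rest on 3 junctions that GENCODE 44 does not hold, which join exon 4 to exon 8, exon 4 to exon 9 and exon 5 to exon 9. Of these skip junctions, only those from exon 3 to exon 4 and from exon 5 to exon 8 belong to a listed transcript found in GENCODE 44. The expression table held only transcripts picked for their change. Its lack of the other structures therefore does not say whether they were present.

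The expression table places MDM2 at chr12:68808171-68963269, a span whose end is that of a transcript of its neighbour CPM, the membrane-bound carboxypeptidase M on the minus strand. Both genes overlap by 3348 bases at their 3′ ends. Of the 5 annotated MDM2 transcripts only ENST00000258149, with its long last exon, reaches into CPM. No source used here says whether the estimates kept strand, so reads from the overlap cannot be told apart between both genes. CPM was the 1 gene listed of 23 on chromosome 12 around MDM2, and its 2 listed transcripts went in opposite directions. ENST00000551568 had 5.49 FPKM with paclitaxel and 1.21 FPKM with DMSO, and ENST00000546373 had 0.124 FPKM with paclitaxel and 2.49 FPKM with DMSO. Neither reaches into MDM2 in GENCODE 44.

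Some other genes of the p53 and MDM2 loop were listed. The share of all genes that was listed is not known here, so their number is not judged as few or many. Of a list of 35 genes, MDM2 and those that regulate p53 or MDM2 or bind MDM2, 4 were listed apart from MDM2 itself, 3 higher and 1 lower with paclitaxel, where 49.0% of all listed genes were higher. MDM4, the relative of MDM2 that also restrains p53, and USP7, which removes ubiquitin from MDM2, were not among them. CCNG1, which encodes the p53-induced cyclin G1, had 6.92 FPKM with paclitaxel and 0.561 FPKM with DMSO. NUMB, an adaptor protein that binds MDM2, was low in both libraries, with 1.23 FPKM with paclitaxel and 0.0613 FPKM with DMSO. The checkpoint kinase CHEK1 was the lower gene, with 0.479 FPKM with paclitaxel and 6.03 FPKM with DMSO. These are values of single transcripts, and CCNG1, NUMB and CHEK1 were each under 1 FPKM in one of both libraries.

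MDM2 was set beside 57 other p53 target genes, of which 23 were listed and all 23 were higher with paclitaxel. With a floor of 1 FPKM in each library 17 stayed, all higher, where 31.1% of all listed genes above that floor were. The list was drawn up with earlier results of these data known, so the shared direction is a description and no independent test. The median log2 ratio of the 23 was 2.49, from 1.54 to 3.94, and that of all listed genes that were higher was 2.92. MDM2 by its most abundant transcript had 3.16. The 8 targets with the largest difference in log2(FPKM + 1) are given here. TP53INP1, which promotes cell death and autophagy, had 14.9 FPKM with paclitaxel and 1.05 FPKM with DMSO, and GDF15, a secreted stress cytokine, had 158 FPKM with paclitaxel and 21.0 FPKM with DMSO. ZMAT3, an RNA-binding zinc finger protein, had 20.1 FPKM with paclitaxel and 3.08 FPKM with DMSO, and SPATA18, a protein of mitochondrial quality control, had 9.63 FPKM with paclitaxel and 1.08 FPKM with DMSO. On this scale these differences were 2.95, 2.85, 2.37 and 2.36, against 3.10 for the most abundant MDM2 transcript. CCNG1 followed with 2.34, the antiproliferative gene BTG2 with 2.32 (41.0 FPKM with paclitaxel and 7.42 FPKM with DMSO), CDKN1A, which encodes the cell cycle inhibitor p21, with 2.30 (387 FPKM with paclitaxel and 77.8 FPKM with DMSO), and the receptor gene EDA2R with 2.25 (25.1 FPKM with paclitaxel and 4.48 FPKM with DMSO).

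**Figure D4:**
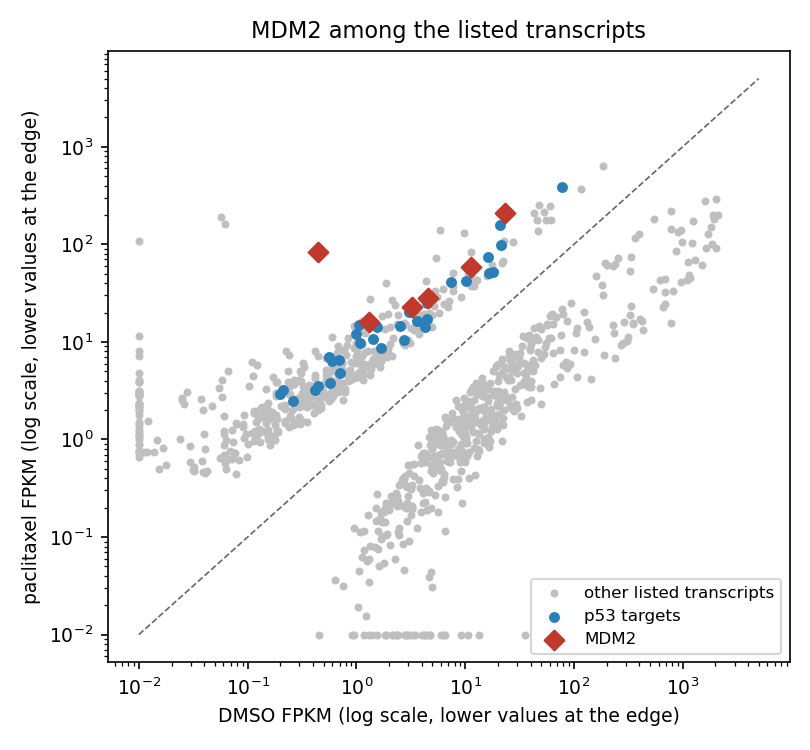
FPKM of the 993 listed transcripts with paclitaxel (y axis) and DMSO (x axis), both on log scales, with lower values drawn at the edge and a dashed line at equal values. The 6 MDM2 transcripts (diamonds) and the transcripts of the 23 listed p53 targets (blue) lie above the line, and the empty band along the line holds no transcripts because of how the table was made.

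The transcripts whose levels were nearest to ENST00000539479 in both libraries, by distance in log2(FPKM + 1) over these 2 points, were those of GDF15 (distance 0.43), the chemokine CXCL5 (0.86), the keratin KRT19 (0.96), the chemokine CCL2 (0.96) and the mitochondrial superoxide dismutase SOD2 (1.01). Each of these 5 had a smaller log2 ratio than the MDM2 transcript, from 1.95 for CCL2 and SOD2 to 2.91 for GDF15. MDM2 was 1 of 4 genes with 6 listed transcripts, the most of any gene. The other 3 were FN1, the matrix protein fibronectin, and SOD2, with all 6 higher in each, and AURKA, the mitotic kinase Aurora A, with all 6 lower. The log2 ratios of MDM2 transcripts ran from 2.37 to 7.55, those of FN1 from 2.10 to 2.90 and those of SOD2 from 1.95 to 3.71. The value of 7.55 is that of ENST00000356290, which had 0.440 FPKM with DMSO. The other 5 MDM2 transcripts ran from 2.37 to 3.63, inside the range of SOD2. Among 134 genes with more than 1 listed transcript, 38 had all of them higher, 85 all lower and 11 some in each direction.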

How the data were processed

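The study's methods map paired-end reads to hg38 with MapSplice and take levels from Cufflinks. TopHat and CASAVA 1.8.2 are named, beside Cufflinks, in notes of the submitters. The FPKM values were deposited by the authors per transcript. The library with the suffix T in its column name was taken as paclitaxel, the only treated sample. The other library is labelled None for treatment, and the protocol text gives DMSO. The event table, in the layout of MATS (the study's methods name MISO), was used for exon positions only. Its 6 columns of values per library match no label and were not used. The authors' own comparisons (log2 ratio, p-value and q-value of expression, and p-value, FDR and inclusion difference of events) were not used.

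Ratios and log2(FPKM + 1) differences were computed with Python 3.11.15 and pandas 2.3.3. The pseudocount of 1 understates changes of low transcripts. A gene was given the value of its listed transcript with the highest FPKM. Exons and junctions were compared with GENCODE 44 (hg38), where 948 of 993 listed transcripts were found, and sequences were read from hg38 and RefSeq. The counting of directions and the choice of 1 transcript per gene were tested on simulated data. Members and lists were chosen with earlier results of these data known. Named genes were every listed MDM2 transcript and exon, the listed genes of the loop, neighbour and blood marker lists, the 8 p53 targets with the largest difference, and the 5 nearest transcripts. ACTA2 and the genes beside MDM2 by rank or number of transcripts were named after their values were seen. Alternatives were a floor of 1 FPKM, a pseudocount of 0.1, division by the total listed FPKM, other sums per gene and merging of overlapping exons. Values of 1 listed gene of the loop list, and 1 exon sequence, are not reported here.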

Additional observations from a re-analysis of the deposited data

How the results depend on the processing

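None of the alternatives could reverse the direction of an MDM2 transcript, so they do not test it. Another pseudocount keeps the sign, and a floor only removes transcripts. Division by the total listed FPKM raised the paclitaxel values against those of DMSO. The median difference in log2(FPKM + 1) of the MDM2 transcripts was 2.69, and it was 2.96 with a pseudocount of 0.1 and 3.74 after division by the total listed FPKM. The summed MDM2 ratio of 9.42 was 8.92 for the highest transcript alone, 7.63 for transcripts annotated as protein coding, and 40.6 after division by the total listed FPKM. That total was 14093 FPKM with paclitaxel and 60710 FPKM with DMSO, over a table of transcripts chosen for their change. Of the loop genes, MDM2 included, 4 were higher, and 1 (MDM2) with at least 1 FPKM in both libraries. The count of 23 p53 targets, where 49.0% of all listed genes were higher, was 23 with summed transcripts. It was 17 with that floor, where 31.1% of all listed genes above the floor were higher. The 10 distinct exons stayed 10 when overlapping exons were merged. No paired analysis was possible because each condition has 1 library, and for the same reason no library could be left out. Depth is unknown, so low values such as 0.440 FPKM for ENST00000356290 with DMSO carry an unknown counting error.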
